A study of Homo sapiens with 38 samples.

Results

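DPPA4 was profiled in parental NCI-H661 (H661) cells by CUT&RUN with 3 rabbit antibodies, DPPA4n (abcepta AP1438a, directed at the N terminus), ab154642 (abcam) and DPPA4c (abcepta AP21202c, directed at the central part of the protein). H661 is a line of non-small cell lung cancer whose own genes supply DPPA2 and DPPA4, and it was used here unedited, untreated and growing asynchronously. In CUT&RUN an antibody tethers a nuclease to unfixed chromatin, and the fragments cut free around the bound protein are sequenced. The series asks where DPPA2 and DPPA4 lie on cancer chromatin and what depends on them, and the libraries described here are 3 of its 38, of which 30 have files of enriched regions. Each antibody had 1 library from 1 cell line. A difference between antibodies and a difference between libraries therefore cannot be told apart, and no test between antibodies was possible. Intervals given below are exact (Clopper-Pearson) 95% binomial intervals that cover counting error only, and neighbouring regions are not independent.

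DPPA2 and DPPA4 carry a SAP domain, a short fold that contacts DNA, and work as a heterodimer. They are best known from the early embryo and from pluripotent stem cells, where they keep CpG-dense promoters of developmental genes poised for activation, and they are silent in most adult tissues. In mouse embryonic stem cells the pair is known for binding together with Polycomb and Trithorax group proteins at such promoters.

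Other libraries of the series were used to look at the same sites. These were DPPA2 in parental H661, and DPPA4n in 2 H661 derivatives carrying hairpins that doxycycline switches on, either against DPPA4 (shDPPA4) or against both genes (shDPPA2+4), grown for 7 days with 2 µg/mL doxycycline (DOX) or with water. The DOX and water libraries share the hairpin construct and come from sorted bulk populations. RING1B, PCGF1, MTF2 and EP300 were taken from the water arms. H1299, a lung cancer line without either protein, had been given inducible Flag-DPPA2 and V5-DPPA4 and treated with doxycycline for 7 days, and its V5, DPPA4n and ab154642 libraries came in 2 replicates.

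The DNA under the summit, which is the base with the highest pile-up of fragments in a peak, differed between sites found by different sets of antibodies. The 7 sequences below are 150 bases each, centred on a summit, from the plus strand of GRCh38, with every CpG in capitals. They were chosen by a rule as strong examples of each class. SNRPA (chr19:40750881-40751030, upstream of the gene for a U1 snRNP protein) and MAP3K6 (chr1:27365988-27366137, a stress kinase gene) were found by all 3 antibodies. NT5C3A (chr7:33062900-33063049, a pyrimidine nucleotidase gene) had DPPA4n and ab154642 and no DPPA4c region. PGRMC1 (chrX:119236056-119236205, a haem-binding membrane protein gene) had DPPA4n and no ab154642 region. PCNP (chr3:101573792-101573941, a gene for a PEST-containing nuclear protein) had ab154642 and no DPPA4n region. The last pair are the ARMC7 intron at chr17:75113925-75114074, found by ab154642 alone, and an intergenic site at chr19:26216871-26217020, found by DPPA4c alone.
SNRPA: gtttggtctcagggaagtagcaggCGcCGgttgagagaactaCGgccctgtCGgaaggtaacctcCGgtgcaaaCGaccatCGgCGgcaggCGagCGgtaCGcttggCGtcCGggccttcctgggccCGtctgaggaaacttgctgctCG
MAP3K6: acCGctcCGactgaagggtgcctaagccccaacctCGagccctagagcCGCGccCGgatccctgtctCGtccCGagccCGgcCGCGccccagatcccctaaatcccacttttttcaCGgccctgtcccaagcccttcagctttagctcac
NT5C3A: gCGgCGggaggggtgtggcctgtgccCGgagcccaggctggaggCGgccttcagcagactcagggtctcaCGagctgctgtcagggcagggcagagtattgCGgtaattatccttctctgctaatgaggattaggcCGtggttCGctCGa
PGRMC1: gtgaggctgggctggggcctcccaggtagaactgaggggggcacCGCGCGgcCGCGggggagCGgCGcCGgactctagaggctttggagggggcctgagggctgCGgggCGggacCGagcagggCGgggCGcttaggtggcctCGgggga
PCNP: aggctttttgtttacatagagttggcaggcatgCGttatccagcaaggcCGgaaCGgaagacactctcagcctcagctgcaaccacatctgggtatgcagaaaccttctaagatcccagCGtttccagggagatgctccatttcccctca
ARMC7 intron: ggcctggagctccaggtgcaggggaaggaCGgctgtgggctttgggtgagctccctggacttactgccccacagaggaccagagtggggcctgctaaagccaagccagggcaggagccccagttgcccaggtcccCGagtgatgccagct
Intergenic site: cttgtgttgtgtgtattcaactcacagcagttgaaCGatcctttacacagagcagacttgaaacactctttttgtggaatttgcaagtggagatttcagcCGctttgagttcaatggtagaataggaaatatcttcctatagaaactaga

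SNRPA held 15 CpGs, MAP3K6 12, NT5C3A 9 and PGRMC1 14, against 4 at PCNP and 2 at each of the last pair. GC content was 64.0% at SNRPA, 76.7% at PGRMC1 and 66.0% in the ARMC7 intron, so that the intron was GC-rich with few CpGs, and 38.7% at the intergenic site. The intergenic site lies at or close to the centromere of chromosome 19. Regions of known artefact were not removed there, and its reads may be misplaced. The GC box GGGCGG, the core letters of the site for SP1 family factors, occurred 2 times at PGRMC1 and in none of the other 6 sequences, counting both strands.

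The antibodies gave lists of very different length. MACS2, which calls narrow peaks against an IgG control, left 19954 peaks for DPPA4n, 27591 for ab154642 and 1725 for DPPA4c on the autosomes and chromosome X after filtering at a false discovery rate below 0.05 and a fold above 2. These peaks covered 12.9 Mb for DPPA4n, 18.1 Mb for ab154642 and 0.723 Mb for DPPA4c. EPIC2, which links neighbouring enriched 100-bp bins to form domains, left 35818 DPPA4n, 46491 ab154642 and 13598 DPPA4c domains. DPPA4c was therefore the shortest list with both callers, and ab154642 the longest. DPPA4c peaks were also narrower, with a median width of 367 bp against 474 bp for DPPA4n and 465 bp for ab154642.

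The median MACS2 fold over the local IgG background was nearly the same in the 3 lists, at 5.78 for DPPA4n, 5.59 for ab154642 and 5.70 for DPPA4c. The strongest peak reached a fold of 47.1 for DPPA4n and 44.3 for ab154642, against 19.7 for DPPA4c. The fold column of EPIC2 also yields the size of each library relative to its IgG control, and this was 0.921 for DPPA4n, 0.967 for ab154642 and 0.912 for DPPA4c. At these similar sizes DPPA4n had 668336 reads in its domains, ab154642 had 901832 and DPPA4c had 146952. After scaling to library size this was 4.50 times as many for DPPA4n as for DPPA4c, and 5.79 times as many for ab154642 as for DPPA4c. The reads were counted in each list's own domains, so these ratios follow in part from the length of the lists. They are no separate measure of enrichment in libraries of about the same size. Mitochondrial reads numbered 350238 for DPPA4c, 189349 for DPPA4n and 127744 for ab154642, and their part in the library size was not tested.

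All 3 EPIC2 lists were called against the same IgG library. The MACS2 lists carry no IgG counts, so their control could not be checked in this way. DPPA4n and ab154642 shared 1240 domains with identical ends, and the IgG count was equal in every one of them. The same held in all 317 domains with identical ends between DPPA4n and DPPA4c and in all 341 between ab154642 and DPPA4c. A local gap or excess in that control enters all 3 EPIC2 lists alike, and the MACS2 lists too if they share it. Its part in the overlap was not tested. The domains averaged 30.2 reads per kb for DPPA4n, 30.0 for ab154642 and 24.9 for DPPA4c, and the IgG control had 3.41, 3.44 and 4.52 reads per kb in them.

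**Figure D1:**
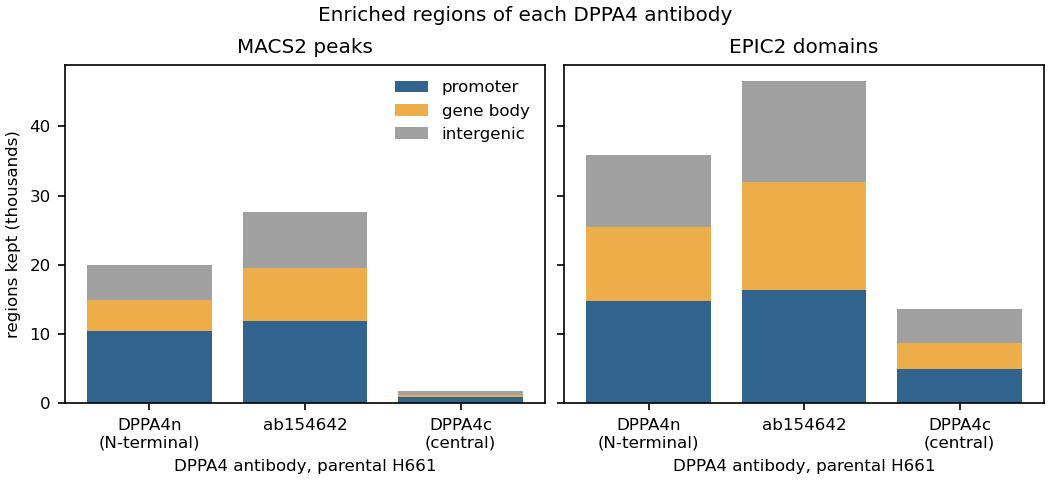
Number of kept regions of each antibody (y axis, in units of 1000 regions; x axis, antibody) for MACS2 peaks and EPIC2 domains, with the bars divided into promoter, gene body and intergenic regions. DPPA4c has 1725 MACS2 peaks against 19954 for DPPA4n and 27591 for ab154642, and 13598 EPIC2 domains against 35818 and 46491.

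DPPA4c peaks lay almost entirely inside the other lists. Counting regions that share at least 25% of the shorter region, 1564 of 1725 DPPA4c peaks (90.7%, interval 89.2 to 92.0%) met a DPPA4n peak and 1610 (93.3%, 92.1 to 94.5%) met an ab154642 peak. In the other direction, 7.29% of DPPA4n peaks and 5.35% of ab154642 peaks met a DPPA4c peak. Between the longer lists, 14813 of 19954 DPPA4n peaks (74.2%, 73.6 to 74.8%) met an ab154642 peak, and 14453 of 27591 ab154642 peaks (52.4%, 51.8 to 53.0%) met a DPPA4n peak. Adding DPPA4c hardly changed these shares, since 74.3% of DPPA4n peaks and 52.5% of ab154642 peaks met a peak of either other antibody.

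The EPIC2 domains gave another picture for DPPA4c. Of its 13598 domains, 62.6% met a DPPA4n domain, 68.3% met an ab154642 domain and 71.7% met either. Of DPPA4n domains, 21.2% met a DPPA4c domain, as did 17.6% of ab154642 domains, so that these shares were about 3 times those among peaks. EPIC2 also recovered part of what MACS2 missed. Of 5141 DPPA4n peaks without an ab154642 peak, 1987 (38.7%) lay in an ab154642 domain, and of 13138 ab154642 peaks without a DPPA4n peak, 4129 (31.4%) lay in a DPPA4n domain. Of 18500 DPPA4n peaks without a DPPA4c peak, 4694 (25.4%) lay in a DPPA4c domain.

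Agreement followed peak strength. With the peaks of a list divided into deciles by fold, 44.7% of DPPA4n peaks met an ab154642 peak in the lowest decile (fold 2.02 to 4.20) and 99.6% in the highest (11.0 to 47.1). For ab154642 peaks the share with a DPPA4n peak was 18.4% in the lowest decile and 98.3% in the highest. The strongest peaks of the longer lists were therefore almost all common to both, and the disagreement lay among the weak ones. DPPA4c peaks were met by 0.952% of DPPA4n peaks in the lowest decile and 40.1% in the highest, and DPPA4c domains by 12.8% and 79.8%. Even DPPA4c peaks in their own lowest decile met a DPPA4n peak in 72.3% and an ab154642 peak in 79.8% of cases.

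**Figure D2:**
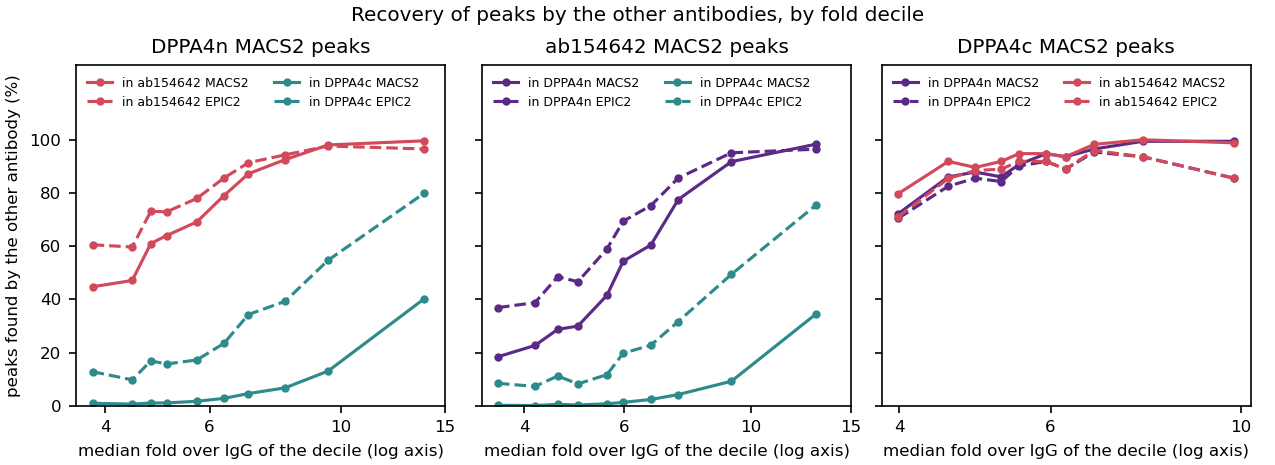
Share of MACS2 peaks of each antibody (panels) that another antibody also found (y axis, percent), by decile of fold (x axis, median fold over IgG of the decile, log axis; solid lines peaks, dashed lines EPIC2 domains). DPPA4n and ab154642 meet in 99.6% and 98.3% of cases in their strongest deciles, while DPPA4c peaks are mostly found by both others along their whole range.

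The shares changed with the length of the lists. When each list was cut to its 1725 strongest peaks, which needed a fold of at least 11.5 for DPPA4n and 11.9 for ab154642, 64.6% of DPPA4n peaks met an ab154642 peak and 64.2% the reverse. Of these DPPA4n peaks 42.7% met a DPPA4c peak, and of the ab154642 peaks 44.3% did. Among DPPA4c peaks, 47.5% met one of the strongest DPPA4n peaks and 50.6% one of the strongest ab154642 peaks. At equal length DPPA4n and ab154642 were thus closer to each other than either was to DPPA4c, a statement about these 3 libraries. The DPPA4c list entered whole, from a fold of 2.10 and with a median of 5.70, against medians of 14.4 for DPPA4n and 14.8 for ab154642. Equal length was therefore not equal strength, and the part of strength in this order was not tested.

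Merging the peaks of the 3 lists gave 7 classes of sites by the antibodies that found them. All 3 antibodies found 1442 sites (4.59%), DPPA4n and ab154642 without DPPA4c 12439 (39.6%), DPPA4n alone 4740 (15.1%) and ab154642 alone 12674 (40.3%). DPPA4c alone found 81 sites, DPPA4c with DPPA4n 14 and DPPA4c with ab154642 43. Sites of all 3 were wide, with a merged median width of 1547 bp, against 860 bp for DPPA4n with ab154642, 300.5 bp for DPPA4n alone, 338 bp for ab154642 alone and 277 bp for DPPA4c alone. The median DPPA4n fold was 11.9 at sites of all 3, 6.34 at sites shared with ab154642 and 4.80 at sites of DPPA4n alone. The median ab154642 fold ran in the same order, at 12.4, 6.84 and 4.95. The folds belong to the peaks that made the classes and describe them only.

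**Figure D3:**
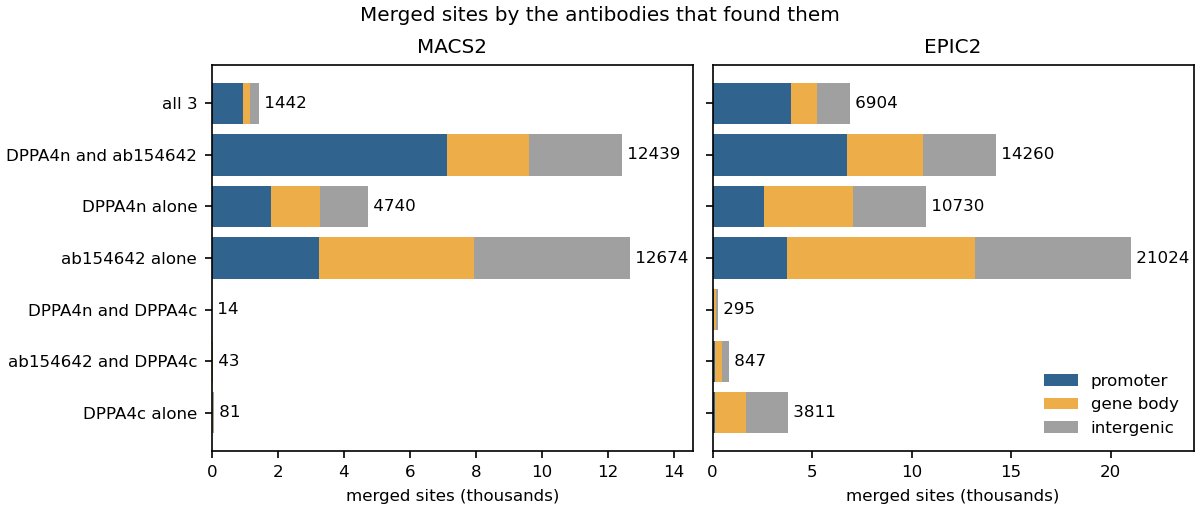
Number of merged sites (x axis, in units of 1000 sites) in each class of antibodies, for MACS2 peaks and EPIC2 domains, divided by place. Among MACS2 sites those of DPPA4c alone number 81, against 3811 among EPIC2 sites, where few of them lie at promoters.

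At sites that antibodies shared, the longer lists gave similar strengths. Over 13881 merged sites with both, the median log2 ratio of DPPA4n to ab154642 fold was -0.07, and DPPA4n was the higher at 45.7%. The folds correlated across sites with a Spearman rho of 0.64, a description in which both may share the IgG control. At the 1456 sites with DPPA4n and DPPA4c the median log2 ratio was 0.98, with DPPA4n higher at 94.2%. At the 1485 sites with ab154642 and DPPA4c it was 1.02, with ab154642 higher at 96.6%. DPPA4c therefore had the lower fold at nearly all the places it shared with either of them. Of the 1442 sites of all 3, ab154642 had the highest fold at 815, DPPA4n at 612 and DPPA4c at 15.

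The antibodies also placed their summits alike. The strongest DPPA4n and ab154642 summits of a shared site lay a median of 105 bp apart, with 48.9% within 100 bp and 89.4% within 500 bp. The median was 109 bp between DPPA4n and DPPA4c and 100 bp between ab154642 and DPPA4c. At SNRPA the 3 summits coincided to the base.

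All 3 antibodies favoured promoters, here the transcription start site (TSS) ± 1500 bp of 19970 protein-coding genes, a window that covers 1.83% of the genome. Of DPPA4n peaks 52.1% touched a promoter, 23% lay elsewhere in a gene body and 24.9% were intergenic. For ab154642 the shares were 43.1% promoter, 27.5% gene body and 29.4% intergenic, and for DPPA4c 56.3%, 17.9% and 25.8%. The EPIC2 lists had fewer promoter regions, 41.4% for DPPA4n, 35.1% for ab154642 and 36.2% for DPPA4c. Cut to equal length, 73.9% of DPPA4n and 72.1% of ab154642 peaks touched a promoter, above the 56.3% of DPPA4c. This sets the strongest peaks of the longer lists against the whole DPPA4c list with its weak peaks. The order of the antibodies by promoter share thus depended on list length and caller. Intergenic here means outside protein-coding genes, and 26.4% of intergenic DPPA4n peaks, 20.6% of ab154642 and 32.8% of DPPA4c peaks touched the promoter of some other annotated gene.

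Agreement was highest at promoters for every pair. Of DPPA4n peaks, 81.2% met an ab154642 peak at promoters, 64.9% in gene bodies and 68.4% between genes. Of ab154642 peaks, 71.1% met a DPPA4n peak at promoters, 36.3% in gene bodies and 40.0% between genes. DPPA4c peaks met DPPA4n in 96.2% of cases at promoters, 84.1% in gene bodies and 83.1% between genes. The contrast was sharper for EPIC2 domains of DPPA4c, of which 92.8% met a DPPA4n domain at promoters, against 46.5% in gene bodies and 44.7% between genes. Peaks were also stronger at promoters, with median folds of 6.71 at promoters, 5.25 in gene bodies and 5.49 between genes for DPPA4n, and 6.57, 4.97 and 5.28 for ab154642. Strength and place therefore moved together, and their separate parts in the agreement were not tested.

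Within promoters, summits avoided the TSS itself. Within 250 bp of the start lay 41.2% of DPPA4n, 36.8% of ab154642 and 34.7% of DPPA4c promoter summits. The 100 bp just upstream of the TSS held 1.85% of DPPA4n and 1.09% of ab154642 summits, against 11.6% and 11.5% between 300 and 200 bp upstream and 14.8% and 13.6% between 100 and 200 bp downstream. The median summit lay 26 bp downstream for DPPA4n, 16 bp downstream for ab154642 and at -216 bp, which is upstream, for DPPA4c. Among the 1725 strongest peaks the medians of DPPA4n and ab154642 were also upstream, at -189.5 and -192 bp.

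Counted by gene, DPPA4n touched 9389 promoters (47% of the 19970), ab154642 10095 (50.6%) and DPPA4c 1092 (5.47%). Any of the 3 touched 10973 (54.9%) and all 3 touched 1080 (5.41%). With EPIC2 the shares were 55.2% for DPPA4n, 56.7% for ab154642, 22.5% for DPPA4c, 61.2% for any and 21.9% for all 3. DPPA4n and ab154642 without DPPA4c held 7436 promoters by peaks, DPPA4n alone 871, ab154642 alone 1574 and DPPA4c alone 5. Of promoters with a DPPA4n peak 90.7% also had an ab154642 peak, and 84.4% of those with an ab154642 peak had a DPPA4n peak. Of those with a DPPA4c peak, 1082 of 1092 (99.1%) had a DPPA4n peak and 1085 (99.4%) an ab154642 peak. Of the promoters with a DPPA4n peak and no ab154642 peak, 501 of 873 (57.4%) had an ab154642 domain, and 935 of 1579 (59.2%) the reverse, so that many promoters on 1 peak list only were on both domain lists.

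CpG content went with the calls of every antibody. CpG-rich promoters, with a GC content above 55% and an observed/expected CpG ratio above 0.75 over the TSS ± 500 bp, numbered 8411, and 70.6% of them had a DPPA4n peak, 74.0% an ab154642 peak and 8.03% a DPPA4c peak. Of 5642 CpG-poor promoters, with a ratio below 0.5, 6.63% had a DPPA4n peak, 8.68% an ab154642 peak and 0.479% a DPPA4c peak. By deciles of the ratio, DPPA4n peaks were at 1.70% of promoters in the lowest decile and 73.8% in the highest, and ab154642 peaks at 2.80% and 76.7%. DPPA4c peaks were most frequent in decile 7, at 8.81%, with 7.71% in the highest decile.

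The site classes differed in base composition in the 300 bp around the strongest summit. Median GC content was 62.0% at sites of all 3, 61.3% at sites of DPPA4n with ab154642, 57.0% for DPPA4n alone, 49.0% for ab154642 alone and 39.3% for DPPA4c alone. The median CpG ratio was 0.690, 0.643, 0.424, 0.301 and 0.391 in the same order of classes. Part of this went with place, since at promoter sites alone the ratio was 0.739 for all 3, 0.752 for DPPA4n with ab154642, 0.722 for DPPA4n alone and 0.606 for ab154642 alone. Sites of ab154642 alone were thus the poorer in CpG of the single-antibody classes of the longer lists, also at promoters.

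The GC box GGGCGG, searched on both strands, stood in 55.7% of sites of all 3, 47.3% of DPPA4n with ab154642, 33.7% of DPPA4n alone, 20.0% of ab154642 alone and 4 of 81 (4.94%) of DPPA4c alone. At promoter sites it stood in 62.3%, 59.2%, 54.8% and 39.2% of the first 4 classes, while 61.5% of all protein-coding promoters hold it in the 300 bp centred on the TSS. The share was close to that of all promoters in sites of all 3 and lower in the other classes, with windows centred on summits in the classes and on the TSS in all promoters. The ETS core CCGGAAGT stood in 2.23% of promoter sites of all 3, 2.06% of DPPA4n with ab154642, 1.9% of DPPA4n alone and 1.42% of ab154642 alone, below the 5.79% at the TSS of all promoters. A match of letters is a description and no evidence of a bound factor.

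The strongest promoter of all 3 lists was the one shared by SNRPA and ACTMAP, a gene for an actin maturation protease that is read the other way. Its peak ranked first with each antibody, at a fold of 47.1 for DPPA4n, 44.3 for ab154642 and 19.7 for DPPA4c. Its domains held 96 DPPA4n, 105 ab154642 and 49 DPPA4c reads, against 2, 4 and 2 reads of IgG. MAP3K6 had folds of 44.8 for DPPA4n, 35.5 for ab154642 and 14.0 for DPPA4c, and 276, 257 and 64 reads in its domains, with the summits about 900 bp inside the gene. Both promoters were thus strong in all 3 libraries, with DPPA4c at the lowest fold.

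Further promoters in the top 10 by their worst rank among the 3 antibodies were of varied function. C10orf143, an open reading frame of no role stated here, had folds of 34.5 for DPPA4n, 42.1 for ab154642 and 13.1 for DPPA4c. APLP1, a relative of the amyloid precursor protein, had 31.0, 38.8 and 13.3 in the same order of antibodies. CENPM, a kinetochore protein gene, had 30.5, 28.0 and 14.1. ZFPM1, which encodes the GATA cofactor FOG1, had 30.5, 34.2 and 11.0, and the zinc finger gene ZNF131 had 38.4, 28.7 and 11.8. FAM72A and SRGAP2 share a peak (37.4, 30.6 and 12.5), and both belong to families with near-identical copies, where reads may be split or misplaced. APLP1 lies in a 5 Mb window of chromosome 19 with dense IgG, at 6.96 reads per kb in DPPA4n domains against 3.41 over all windows. ETV2, DLL3 and CATSPERG, named below, lie in that window too.

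At 4332 promoters DPPA4n and ab154642 had peaks and DPPA4c had no region from either caller. The strongest by DPPA4n fold included NT5C3A, with 24.0 for DPPA4n and 15.4 for ab154642, and COL1A1, the gene of a type I collagen chain, with 19.7 and 21.8. NFKB2, which encodes a precursor of an NF-kappaB subunit, had 18.8 and 14.3, with both summits at -1475 bp, near the edge of the promoter window. FANCL, a Fanconi anaemia ubiquitin ligase, had 18.4 and 10.6. The domains at NT5C3A held 66 DPPA4n and 61 ab154642 reads, and those at COL1A1 41 and 58, with IgG counts of at most 2 in each. ETV2, an endothelial ETS factor, had 28.6 and 28.8, and MYMX, which drives myoblast fusion, had 21.6 and 24.0, but their summits lay more than 2 kb inside, so that only the flank of a wide peak touched the promoter. Promoters as strong as these with DPPA4n and ab154642 were thus without a DPPA4c call.

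Promoters with a DPPA4n peak and no ab154642 region of either caller numbered 371. PGRMC1 had a DPPA4n fold of 10.8 with 31 reads against 1 of IgG, and TRAF6, an adaptor ligase of innate immune signalling, had 9.52 with 19 reads against 2. ECHDC3 had 8.88, the neurotrophic factor gene GDNF 8.41, and LRP6, a Wnt co-receptor gene, 8.25. Promoters with an ab154642 peak and no DPPA4n region numbered 644. PCNP had an ab154642 fold of 11.8 with 31 reads against 4 of IgG, SCPEP1, a serine carboxypeptidase gene, 11.1 with 20 against 1, and MED16, a Mediator subunit gene, 10.6 with 48 against 7. LMNB2, which encodes a nuclear lamin, had 9.32. These folds are well below the strongest shared promoters and rest on few reads.

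DPPA4c had 5 promoters with a peak where neither other antibody had one, at folds of at most 6.13. CYP1A1, a xenobiotic-metabolising enzyme gene, had the highest of these, but its domains held 13 DPPA4n, 14 ab154642 and 12 DPPA4c reads against 0, 1 and 0 of IgG. At LASP1NB, with a DPPA4c fold of 5.95, the counts were 18, 20 and 13. COX4I1, a respiratory chain subunit gene, and EMC8 share a promoter with a DPPA4c fold of 4.29, and only ab154642 had a domain there. At CYP1A1 and LASP1NB the lack of a peak of the other antibodies was thus a difference between callers.

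The promoters of the DPPA genes themselves were called by the longer lists. DPPA2 had a fold of 8.54 for DPPA4n and 4.16 for ab154642, and DPPA4 had 5.08 and 8.70. Their domains held 34 DPPA4n and 9 ab154642 reads at DPPA2, and 23 and 44 at DPPA4. Neither promoter had a DPPA4c region.

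Developmental transcription factor genes, the class the pair is known for in stem cells, had a DPPA4n peak at 45 of 70 promoters, an ab154642 peak at 44 and a DPPA4c peak at 5, all of which had the other 2 antibodies too. These shares, 64.3% for DPPA4n, 62.9% for ab154642 and 7.14% for DPPA4c, stand beside 47%, 50.6% and 5.47% of all promoters. The median CpG ratio of the list was 0.796, which falls in decile 7 of all promoters. In that decile 68.8% had a DPPA4n peak, 71.6% an ab154642 peak and 8.81% a DPPA4c peak. The list shares were thus not above those of decile 7. PAX9, a tooth and palate factor, had folds of 23.8 for DPPA4n, 18.2 for ab154642 and 6.34 for DPPA4c. DLX2, a factor of forebrain and jaw, had 16.9, 18.1 and 4.07. NKX6-2 had 14.2 for DPPA4n and 8.68 for ab154642 with no DPPA4c peak, and FOXA2 and EMX2 had no peak of any. By domains, NKX6-2 had DPPA4c with 7 reads against 0 of IgG, and EMX2 had DPPA4n with 15 against 1. PAX9 lies in a 5 Mb window of chromosome 14 with dense IgG, at 9.26 reads per kb in DPPA4n domains against 3.41 over all windows.

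Among 34 Wnt ligand and receptor genes, 21 had a DPPA4n peak (61.8%), 22 an ab154642 peak (64.7%) and 5 a DPPA4c peak (14.7%), beside the 47%, 50.6% and 5.47% of all promoters. The median CpG ratio of the list was 0.841, in decile 8 of all promoters. In that decile the peak shares were 69.7% for DPPA4n, 73.8% for ab154642 and 7.56% for DPPA4c. The 5 genes with a DPPA4c peak were all Frizzled receptors. FZD7 had folds of 22.3 for DPPA4n, 19.9 for ab154642 and 5.87 for DPPA4c, FZD5 had 20.3, 12.8 and 6.79, and FZD1 had 20.1, 14.4 and 7.68. FZD4 and FZD9 completed the set, with DPPA4c folds of 5.32 and 6.74, while FZD10 and WNT16 had no peak of any antibody. WNT16 did have a DPPA4n domain, of 13 reads against 1 of IgG. Reads in the domains at FZD7 were 272 for DPPA4n, 274 for ab154642 and 59 for DPPA4c.

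Of 40 Polycomb subunit genes, 29 had a DPPA4n peak (72.5%), 30 an ab154642 peak (75%) and 2 a DPPA4c peak (5.00%). All promoters had 47%, 50.6% and 5.47%, so the DPPA4c share was close to theirs. The median CpG ratio of the list was 0.890, in decile 9 of all promoters. In that decile the peak shares were 71.0% for DPPA4n, 74.6% for ab154642 and 8.16% for DPPA4c. JARID2, a cofactor of PRC2, had folds of 14.4 for DPPA4n, 13.1 for ab154642 and 5.10 for DPPA4c, and PHF1 had 13.3, 11.2 and 5.52. The methyltransferase genes EZH2 (12.1 for DPPA4n and 9.25 for ab154642) and EZH1 (12.1 and 12.4) had a DPPA4c domain of 8 reads each and no DPPA4c peak. By domains the list stood at 33 of 40 for DPPA4n (82.5%), 34 for ab154642 (85.0%) and 15 for DPPA4c (37.5%), beside 55.2%, 56.7% and 22.5% of all promoters.

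Autophagy and proteasome genes, which break down cell components, had a DPPA4n peak at 41 of 61 promoters, an ab154642 peak at 43 and a DPPA4c peak at 7, or 67.2%, 70.5% and 11.5% beside 47%, 50.6% and 5.47% of all promoters. The median CpG ratio of the list was 0.777, in decile 7 of all promoters. In that decile the peak shares were 68.8% for DPPA4n, 71.6% for ab154642 and 8.81% for DPPA4c. ATG3, a lipidation enzyme of autophagy, had folds of 17.3 for DPPA4n, 14.9 for ab154642 and 7.88 for DPPA4c. PSMD11, a proteasome lid subunit gene, had 14.0, 13.7 and 7.97, and PSMC2, a proteasome ATPase gene, 6.71, 12.4 and 6.13. The list's EPIC2 counts were 45 for DPPA4n (73.8%), 55 for ab154642 (90.2%) and 22 for DPPA4c (36.1%), beside 55.2%, 56.7% and 22.5% of all promoters.

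Of 80 cytosolic ribosomal protein genes, 36 had a DPPA4n peak, 50 an ab154642 peak and 1, RPS27L, a DPPA4c peak, with 1 gene on the DPPA4n list and not on the ab154642 list and 15 the reverse. The DPPA4n share, 45.0%, was close to the 47% of all promoters, the ab154642 share was 62.5% beside 50.6%, and the DPPA4c share was 1.25% beside 5.47%. The median CpG ratio of the list was 0.788, in decile 7 of all promoters. In that decile the peak shares were higher, at 68.8% for DPPA4n, 71.6% for ab154642 and 8.81% for DPPA4c. EPIC2 counts were 54 for DPPA4n (67.5%), 59 for ab154642 (73.8%) and 22 for DPPA4c (27.5%), beside 55.2%, 56.7% and 22.5% of all promoters. The DPPA4c share was thus below that of all promoters by peaks and above it by domains. RPL35 had a fold of 14.6 for DPPA4n and 16.2 for ab154642, and RPL39L had 17.1 and 10.3. Germline genes had a DPPA4n peak at 6 of 39 promoters (15.4%), an ab154642 peak at 12 (30.8%) and a DPPA4c peak at 2 (5.13%). All promoters had 47%, 50.6% and 5.47%, so only the DPPA4c share was close to theirs. Germline promoters with a domain numbered 13 for DPPA4n (33.3%), 12 for ab154642 (30.8%) and 5 for DPPA4c (12.8%), beside 55.2%, 56.7% and 22.5% of all promoters. SYCP2, which builds the meiotic synaptonemal complex, had 29.9 for DPPA4n, 21.1 for ab154642 and 7.35 for DPPA4c. In both lists the gap between DPPA4n and ab154642 was smaller or gone with the other caller.

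Pluripotency genes had 9 of 22 promoters with a DPPA4n peak, 10 with ab154642 and 2 with DPPA4c, the last being LIN28B and SALL4. The shares, 40.9% for DPPA4n, 45.5% for ab154642 and 9.09% for DPPA4c, stand beside 47%, 50.6% and 5.47% of all promoters. By domains they were 50.0%, 50.0% and 18.2%, beside 55.2%, 56.7% and 22.5%, so DPPA4c was above all promoters by peaks and below them by domains. SOX2 had a fold of 9.52 for DPPA4n and 10.6 for ab154642, and DPPA3 had no peak of any antibody. Lung lineage markers had a peak at 4 of 18 for DPPA4n (22.2%), 5 for ab154642 (27.8%) and 0 for DPPA4c, with NKX2-1, the master regulator of lung identity, at 7.67 and 10.2. By domains the list had 5 for DPPA4n, 4 for ab154642 and 2 for DPPA4c. NKX2-1 had a DPPA4c domain of 36 reads against 5 of IgG. It lies in the same window of chromosome 14 with dense IgG as PAX9. Its domains held 87 IgG reads for DPPA4n and 80 for ab154642. By peaks, the neuroendocrine list had 2 of 16 for DPPA4n (12.5%), 3 for ab154642 (18.8%) and 0 for DPPA4c, with DLL3, a Notch ligand gene, at 9.14 and 8.59. Immune markers had 0, 1 (5%) and 0 of 20. Olfactory receptor genes, which are silent and CpG-poor, had 1 promoter of 413 (0.242%) with DPPA4n and with ab154642 (OR1F1) and 0 with DPPA4c. The lung, neuroendocrine, immune and olfactory peak shares stand beside the same 47%, 50.6% and 5.47% of all promoters. The lung, immune and olfactory lists also had low median CpG ratios, at 0.251 for lung, 0.185 for immune and 0.167 for olfactory genes. The germline, pluripotency and neuroendocrine lists had 0.680, 0.691 and 0.685, in decile 5 of all promoters. In that decile the peak shares were 57.9% for DPPA4n, 61.6% for ab154642 and 6.11% for DPPA4c. The part of CpG content in the shares of any list was not tested.

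Outside promoters the strongest common sites lay in introns and in stretches without protein-coding genes. The TIAM1 intron, in a gene for a Rac activator, had folds of 33.6 for DPPA4n, 30.8 for ab154642 and 13.1 for DPPA4c. An intron of CATSPERG, a sperm ion channel subunit gene, had 43.7, 38.7 and 11.6, and the PTH2R intron, in a gene for a parathyroid hormone receptor, 39.0, 28.2 and 10.0. An intergenic site 22706 bp from FSCN1, the gene of the actin bundler fascin, had 32.9 for DPPA4n, 31.0 for ab154642 and 13 for DPPA4c. A site within the non-coding gene DANT2 on chromosome X had 26.3, 38.6 and 13.7. A gene body site in CCDC200 overlaps U2 snRNA genes, which come in many copies, so that its folds of 28.5, 29.8 and 12.1 rest on reads of uncertain place.

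The sites of DPPA4c alone were unlike the rest in place. Of the 81, 11 were at promoters, 24 in gene bodies and 46 between genes, and 33 (40.7%, interval 29.9 to 52.2%) lay more than 1 Mb from any protein-coding TSS. The same share was 0.971% for sites of all 3, 0.651% for DPPA4n with ab154642, 1.18% for DPPA4n alone and 1.40% for ab154642 alone. The strongest without a domain of the other antibodies was an RPH3AL intron at a fold of 11.7, followed by a pair on chromosome 19 with folds of 6.47 and 6.45. The pair lay more than 2 Mb from the nearest protein-coding TSS and at or close to the centromere, where reads may be misplaced. Regions of known artefact were not removed here, and their part in these sites was not tested.

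Domains of DPPA4c alone, of which there were 3843, had a median of 7 reads against 2 of IgG, and 3.15% touched a promoter, while 49.2% of the 9755 DPPA4c domains shared with another antibody did. They were also gathered in a few stretches. Cutting the genome into 596 windows of 5 Mb, the 5 windows with most of them held 655 (17.0%), and these windows held 8.55% of all DPPA4c domains, against 2.71% of DPPA4n and 2.82% of ab154642 domains. The windows were picked for their DPPA4c domains, so a higher DPPA4c share in them follows from the choice and describes them only. The windows lie on chromosomes 2, 5, 12 and 14. The IgG control was denser there too, at 7.82 reads per kb in DPPA4n domains, 7.61 in ab154642 and 7.43 in DPPA4c domains, against 3.41, 3.44 and 4.52 over all windows, and its part in the calls was not tested. Outside them, 65.6% of DPPA4c domains met a DPPA4n domain and 71.2% an ab154642 domain, an alternative chosen after the data had been seen.

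Other libraries were set against the site classes to see how often a site found by fewer antibodies was also bound elsewhere in the series. DPPA2 domains of parental H661 touched 95.8% of sites of all 3, 88.2% of DPPA4n with ab154642, 54.5% of DPPA4n alone, 48.7% of ab154642 alone and 17.3% of DPPA4c alone. The water library of shDPPA4, made with the DPPA4n antibody, touched 96.9% of sites of all 3, 98.1% of DPPA4n with ab154642, 90.0% of DPPA4n alone, 86.2% of ab154642 alone and 35.8% of DPPA4c alone. That library has 76174 domains, more than any of the 3 parental lists. The water library of shDPPA2+4, also made with DPPA4n and with 44555 domains, touched 82.5% of DPPA4n alone and 77.5% of ab154642 alone. At promoters the water library of shDPPA4 touched 97.4% of DPPA4n alone and 96.5% of ab154642 alone. The share of all promoters touched is not given for this library or those below, so the values compare classes only.

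**Figure D4:**
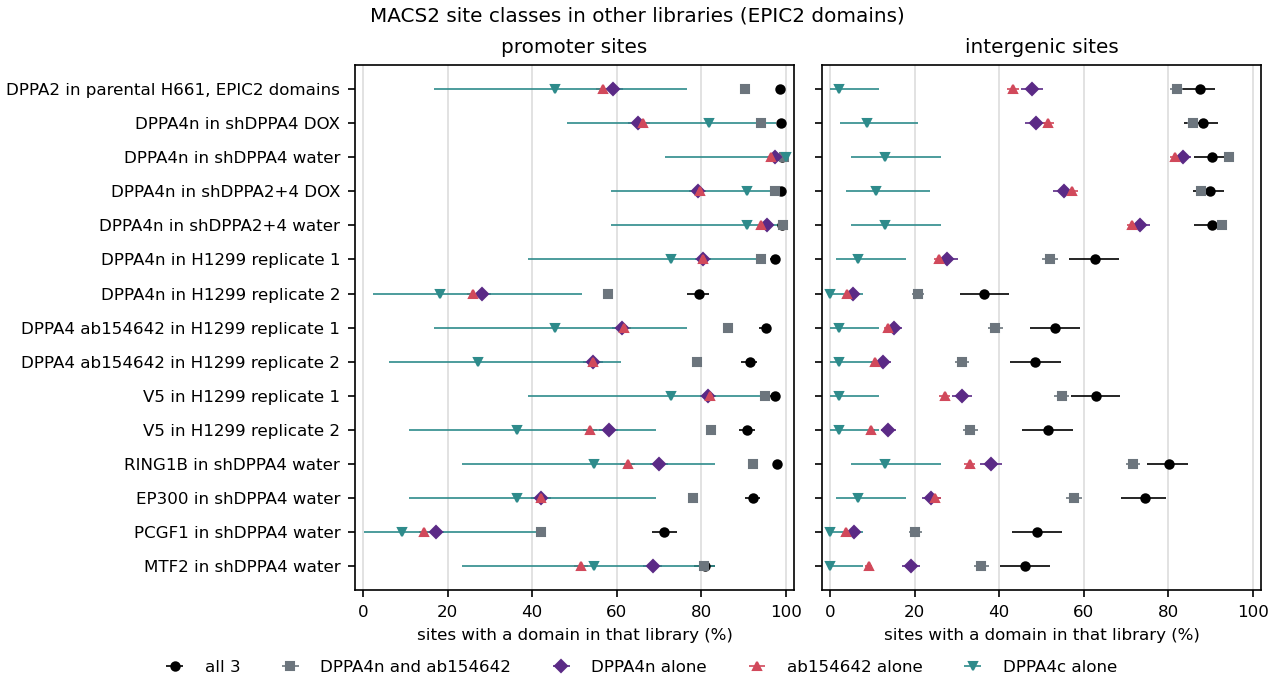
Share of MACS2 sites of each class (x axis, percent, with exact 95% binomial intervals) that an EPIC2 domain of another library touches (rows), at promoter sites (left) and intergenic sites (right). At promoters DPPA2 domains touch 59.1% of sites of DPPA4n alone and 56.7% of ab154642 alone, between the 98.7% of sites of all 3 and the 45.5% of the 11 sites of DPPA4c alone.

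The V5 tag in H1299, which does not rely on a DPPA4 antibody, gave the same order of classes as DPPA2. In replicate 1 it touched 87.6% of sites of all 3, 79.9% of DPPA4n with ab154642, 52.7% of DPPA4n alone, 44.4% of ab154642 alone and 16.0% of DPPA4c alone, and in replicate 2 78.4%, 62.9%, 31.5%, 22.1% and 9.88%. At promoters, replicate 1 touched 81.7% of DPPA4n alone and 82.1% of ab154642 alone. Among sites with a fold from 5 to 7, DPPA2 domains touched 58.2% of 2003 sites of DPPA4n alone and 56.7% of 4097 of ab154642 alone, and V5 in replicate 1 touched 60% and 52.6%. At matched strength the single-antibody classes were thus close to each other for DPPA2, and further apart for V5. Median merged width ran from 1547 bp at sites of all 3 to 277 bp for DPPA4c alone. Its part in how often a site was touched was not tested.

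In H1299 the antibodies did not keep to their parental classes. Where only 1 of the pair of antibodies had a domain in replicate 1, at sites that DPPA4n alone had found in H661, DPPA4n had it at 839 and ab154642 at 35, and at sites that ab154642 alone had found, DPPA4n had it at 2102 and ab154642 at 84. In replicate 2 the counts ran the other way, with 93 for DPPA4n and 791 for ab154642 at sites of DPPA4n alone, and 184 and 1795 at sites of ab154642 alone. The side that found more sites thus changed with the replicate and was the same in both classes.

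Knockdown libraries were made with DPPA4n only. In shDPPA4, of sites with a domain in the water library, the DOX library had none at 12 of 1398 (0.858%) of all 3, at 897 of 12203 (7.35%) of DPPA4n with ab154642, at 1733 of 4265 (40.6%) of DPPA4n alone and at 4164 of 10924 (38.1%) of ab154642 alone. In shDPPA2+4 these shares were 0.287%, 3.87%, 25.1% and 24.5%. The DOX library of shDPPA4 had 39246 domains against 76174 with water, and that of shDPPA2+4 38898 against 44555. The weak sites of either antibody alone were thus lost from the lists about equally often, and those of all 3 hardly at all. The classes also differ in strength and width, which bear on whether a domain is still called, and the change in signal was not measured. Each arm is 1 library, so that these values have no replicate check.

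Chromatin proteins of the water arms separated DPPA4n alone from ab154642 alone at some points. MTF2, which guides PRC2 to CpG islands, touched 36.6% of DPPA4n alone and 19.6% of ab154642 alone in shDPPA4, and 36.4% and 20.0% in shDPPA2+4. At promoters these were 68.5% and 51.6% in shDPPA4, and 69.5% and 54.4% in shDPPA2+4. RING1B, the catalytic subunit of PRC1, touched 45.2% and 36.2% in shDPPA4. EP300, a histone acetyltransferase, touched 27.8% and 27.0%, without such a gap. PCGF1, a subunit of variant PRC1, touched 64.0% of sites of all 3, 32.2% of DPPA4n with ab154642, 9.14% of DPPA4n alone and 5.95% of ab154642 alone. CpG content moved with the MTF2 values, at a median ratio of 0.424 for DPPA4n alone against 0.301 for ab154642 alone, and its part was not tested.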

How the data were processed

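The authors trimmed reads with Trim Galore, aligned them to hg38 with BWA and called regions per library against an IgG control with MACS2 (2.27.1 in the submitters' processing notes) and EPIC2. Deposited EPIC2 files give raw read counts of library and IgG per domain, a log2 fold change scaled for library size, a p-value and a score. Deposited MACS2 files give a fold, which is a ratio, −log10 p and q values and a score. Regions with a false discovery rate below 0.05 and a fold above 2 (log2 above 1) on autosomes and chromosome X were kept. The study's blacklist was not applied. Regions on other sequences were left out. Places came from GENCODE 44. With 1 library per antibody, shares with exact binomial intervals and no tests were used. The overlap and interval code was tested on simulated data. Whole-library depth is not in region lists, so precision is given by counts of reads in domains. Genes were named by rules on fold rank over the antibodies (the 10 best of each class, the 4 strongest and 2 unbound of each list) and the 5 strongest sites outside promoters per place. Some genes that these rules chose are not reported here. Members and lists were chosen with earlier results of these data known. Alternatives were caller, fold limit, overlap, list length and promoter definition. Python 3.11.15, pandas 2.3.3, SciPy 1.17.1 and pysam 0.24.0 were used.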

Additional observations from a re-analysis of the deposited data

Results flagged for a closer look

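Signal outside the autosomes and chromosome X was not used above. MACS2 listed 76 DPPA4n, 85 ab154642 and 25 DPPA4c regions on unplaced or unlocalised sequences, while the EPIC2 lists had 0 there. Mitochondrial DNA had a fold over IgG of 1.57 for DPPA4n and 2.93 for DPPA4c, against 1.01 for ab154642. The mitochondrial reads numbered 189349 for DPPA4n, 127744 for ab154642 and 350238 for DPPA4c, against 130966 for the IgG control.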

How the results depend on the processing

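Over 11 shares and counts, 64 alternative values were computed, of which 23 moved by less than their counting interval, or for counts by less than 1.5 times, and 41 moved more. The share of DPPA4n regions met by ab154642 was 68.1% with EPIC2, 61.5% for summits ± 250 bp, 64.6% at equal list length, 76.2% at 1 shared base and 44.6% at 50% of both regions. That of ab154642 regions met by DPPA4n was 51.7% with EPIC2, 54.3% at a fold above 4, 44.6% for summits, 64.2% at equal length, 53.9% at 1 base and 32.2% at 50%. For DPPA4c regions met by DPPA4n it was 62.6% with EPIC2 (65.6% outside the 5 densest windows), 70.1% for summits, 47.5% at equal length and 21.0% at 50%, and met by ab154642 68.3% (71.2%), 70.2%, 50.6% and 16.2%. The promoter share of DPPA4n was 41.4% with EPIC2, 53.9% at a fold above 4, 73.9% at equal length, 43.1% for TSS ± 500 bp, 61.9% with every annotated gene and 50.4% by summit. For ab154642 it was 35.1%, 45.1%, 72.1%, 34.2%, 52.2% and 41.1% in the same order of settings, and for DPPA4c 36.2% with EPIC2, 45.6% for ± 500 bp and 69.4% with every gene. Promoter counts moved to 1497 for DPPA4n and 1481 for ab154642 at equal length, to 4490 for DPPA4c with EPIC2, and for all 3 to 4375 with EPIC2 and 494 at equal length. Equal length keeps fewer peaks by construction; the cause of the other moves was not tested. No paired analysis was possible because each antibody had 1 library and no test was made. The number of libraries and the lack of whole-library depth limit every comparison between antibodies.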
